A study of Mus musculus with 6 samples.

Results

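The genes described here are 44 genes of mitosis and the G2 phase, measured by RNA sequencing of subcutaneous Lewis lung carcinoma tumours. They were taken from the count table by gene symbol, from a list of cell-cycle names drawn up with earlier results of these data known. The table holds 19288 genes, each of the 44 was found in it once, and each passed the filter on low counts that left 13632 genes for testing. The tumours came from LLC1 cells, a mouse lung carcinoma line, implanted under the skin of mice carrying a beta-hCG transgene, the beta subunit of human chorionic gonadotropin. Every host was a transgenic offspring of CB57BL/6 females and beta-hCG transgenic FVB males, and each tumour was collected 30 days after implantation. Of the 3 groups, each with 2 libraries, the first had transgenic hosts for which no surgery or supplement is named (called transgenic here). The second had ovariectomized transgenic hosts given vehicle (called vehicle), and the third had ovariectomized transgenic hosts given progesterone (called progesterone), with supplementation for 28 days in both. The vehicle and transgenic groups differ by the surgery and by the vehicle together, which cannot be told apart. The promoter that drives the transgene is not given in the sources used here, and nothing in the labels ties a library to a separate animal, so a p-value here reflects how far these libraries spread, which may be technical.

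Cells enter mitosis when cyclin-dependent kinase 1, bound to A- and B-type cyclins, is switched on by Cdc25 phosphatases. Aurora and Polo kinases then build the spindle, the checkpoint proteins hold anaphase until kinetochores are attached, and the anaphase-promoting complex with Cdc20 ends the block by marking cyclin B and securin for destruction. Messenger RNAs of these proteins accumulate from S phase to mitosis and are scarce in resting cells. Their promoters are bound in resting cells by the DREAM complex and later by B-Myb and FoxM1 with the same MuvB core, through a cell cycle genes homology region (CHR), while NF-Y binds CCAAT boxes nearby. In tumours the summed level of such genes is commonly read as a proliferation signature.

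Promoter sequences were searched for these motifs as a description of the list, which was chosen by cell-cycle function. Whether the motifs bear on the levels in these libraries was not tested. RefSeq start sites on build GRCm38.p6 were found for 37 of the 44 genes, giving 40 promoters of 250 bases before to 50 bases after the start. A CHR, searched as TTTGAA or TTCGAA on both strands, lay in 30 of the 40 promoters (75%), against 19.2% of 32851 promoters of all genes. A CCAAT box, searched as CCAAT on both strands, lay in 33 of the 40 (82.5%), against 37.4% of all promoters. Both motifs lay in 27 of the 40 (67.5%), against 7.52% of all. A CHR and a CCAAT match can share at most 1 letter, and a match is a run of letters and not a bound site. The 120 bases before the start are printed 5′ to 3′ on the gene's strand for 6 of the 9 genes that carry both motifs there and for 3 contrasting genes discussed with the values, with CHR and CCAAT matches in capitals (reverse matches read TTCAAA and ATTGG). The stretches with both motifs are Cdk1 at chr10:69352913-69353032 (minus strand); Cks1b at chr3:89418292-89418411 (minus strand); Cdc20 at chr4:118437344-118437463 (minus strand); Ube2c at chr2:164769809-164769928 (plus strand); Top2a at chr11:99024190-99024309 (minus strand); Kif11 at chr19:37376262-37376381 (plus strand). The contrasting ones are Gtse1 at chr15:85859587-85859706 (plus strand); Ccnb1 at chr13:100786487-100786606 (minus strand); Birc5 at chr11:117849117-117849236 (plus strand).
Cdk1: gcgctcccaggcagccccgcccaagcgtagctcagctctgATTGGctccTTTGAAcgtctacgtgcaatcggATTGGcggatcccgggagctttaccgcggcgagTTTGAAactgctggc
Cks1b: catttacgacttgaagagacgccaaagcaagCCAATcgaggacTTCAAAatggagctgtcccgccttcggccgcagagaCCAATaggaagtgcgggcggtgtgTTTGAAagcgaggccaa
Cdc20: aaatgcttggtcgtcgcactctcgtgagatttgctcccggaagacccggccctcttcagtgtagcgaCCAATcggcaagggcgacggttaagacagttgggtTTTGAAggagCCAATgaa
Ube2c: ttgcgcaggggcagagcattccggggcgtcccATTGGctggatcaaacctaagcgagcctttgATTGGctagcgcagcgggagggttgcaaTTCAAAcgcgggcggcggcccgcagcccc
Top2a: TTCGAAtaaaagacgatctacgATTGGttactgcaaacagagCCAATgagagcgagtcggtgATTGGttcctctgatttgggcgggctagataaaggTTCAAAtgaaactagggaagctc
Kif11: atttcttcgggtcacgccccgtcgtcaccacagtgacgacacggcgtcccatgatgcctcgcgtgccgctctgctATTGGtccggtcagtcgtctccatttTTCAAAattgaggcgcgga
Gtse1: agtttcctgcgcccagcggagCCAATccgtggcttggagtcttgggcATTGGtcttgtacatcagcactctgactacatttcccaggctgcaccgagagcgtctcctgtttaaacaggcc
Ccnb1: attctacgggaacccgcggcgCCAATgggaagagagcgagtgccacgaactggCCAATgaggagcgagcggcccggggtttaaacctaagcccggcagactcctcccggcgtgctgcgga
Birc5: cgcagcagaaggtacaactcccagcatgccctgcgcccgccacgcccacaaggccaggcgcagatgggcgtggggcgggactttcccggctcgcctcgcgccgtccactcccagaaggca
Cdk1, Cks1b, Cdc20, Ube2c and Top2a carry both motifs within these 120 bases, as do Ccnf, Ect2 and Prc1, not printed. Kif11 carries both as well, and its values, which rested on 36 to 207 counts per library, followed the other genes least. Gtse1 and Ccnb1 show CCAAT boxes without a CHR in the stretch, and neither gene has a CHR in the longer window. Birc5 has neither motif in its window, as do Mad2l1, Nuf2 and Nusap1.

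Total counts per library lay between 19526775 and 30083925, and values below are CPM, counts scaled to library size by TMM, unless another scale is named. The 2 libraries of a group differed by more than counting noise alone would give. The libraries hold RNA of tumour cells and of host cells, both mouse, so fewer dividing cells and less of these RNAs per cell cannot be told apart. Of the line's markers, vimentin was at 3666 to 4530 CPM and Epcam at 0.053 to 0.222 CPM. Keratin 8 was at 135 and 393 CPM for transgenic tumours, 180 and 209 for vehicle and 362 and 280 for progesterone. Keratin 18 was at 125 and 370, 212 and 256, and 268 and 293 CPM in the same order. Keratins 8 and 18 were thus higher in transgenic library 2 than in library 1. Keratin 19 (3.22 and 0.337 CPM), Cdh1 (3.44 and 2.44 CPM) and vimentin (4221 and 3666 CPM) were lower in transgenic library 2. The 2 transgenic libraries also differed in host-cell markers. The 6 red blood cell precursor markers summed to 2819 CPM in transgenic library 1 and 62.9 CPM in library 2. The 10 fibroblast markers summed to 7645 and 2068 CPM, most of it Col3a1 (6166 and 1414 CPM). Dcn, Lum, Pdgfra and Fap were also lower in library 2, while Col1a1, Col1a2, Pdgfrb, Postn and Thy1 were higher. The 12 T and NK cell markers, of which Cd4, Cd8a, Cd2 and Klrb1c were at 0 in at least 1 library, summed to 3.07 and 14.7 CPM in transgenic libraries 1 and 2, 2.30 and 1.91 CPM for vehicle, and 7.22 and 5.13 CPM for progesterone. Summed macrophage markers were 1310 and 2752, 1620 and 1900, and 2959 and 2552 CPM in the same order. The part of these cells in the levels of the mitotic genes was not tested.

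The 44 genes ran together through the 6 libraries. Their mean log2 CPM was 5.95 and 6.44 in transgenic libraries 1 and 2, 5.34 and 5.54 for vehicle, and 5.84 and 6.04 for progesterone. Both vehicle libraries were therefore the lowest, and transgenic library 2 was the highest. For 38 of the 44 genes both vehicle libraries were the lowest of the 6, the exceptions being Ccnb2, Nek2, Bub1, Ttk, Kif11 and Anln. Group means followed the order vehicle, progesterone, transgenic from low to high for 41 genes. Incenp and Gtse1 had their highest mean in the progesterone group, and Kif11 had its highest in the vehicle group. Transgenic library 2 was the highest library for 37 genes, and vehicle library 1 the lowest for 39. The shares of all genes in these orders were not counted, so these counts only describe the 44. As a description over 6 libraries that share their depth and scaling, 40 genes had a Pearson correlation above 0.8 with the mean of the other members, and Kif11 (-0.26) and Gtse1 (0.38) were below 0.5.

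**Figure D1:**
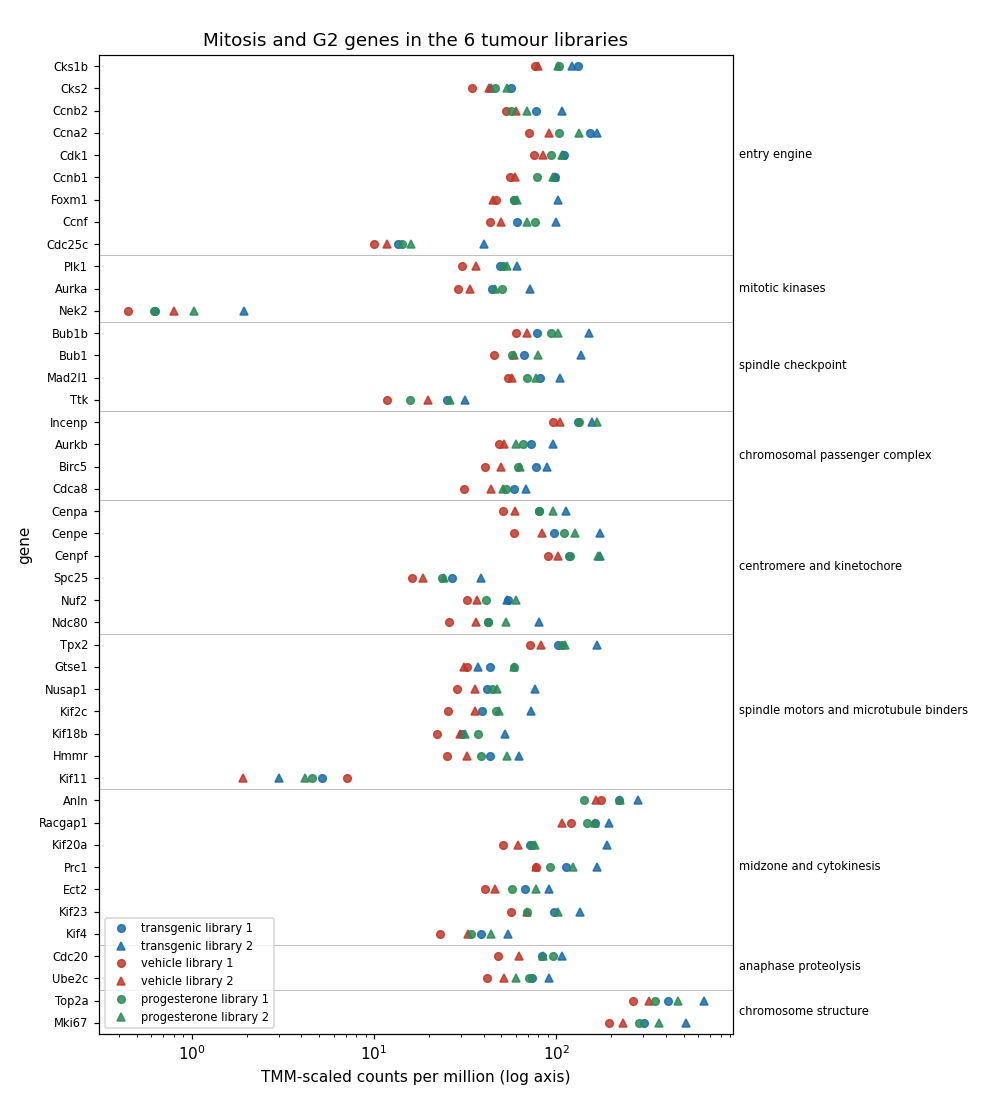
TMM-scaled CPM (log axis) of each of the 44 genes in the 6 libraries, ordered by role and, within a role, by mean CPM per kilobase; circles are library 1 and triangles library 2 of a group. Red vehicle points lie at the left for 38 genes and the blue triangle of transgenic library 2 at the right for 37, while Kif11 shows no such order. How many of all genes show these orders was not counted.

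Levels between genes are given per kilobase of exon. Cks1b, the small subunit that docks Cdk1 to its substrates, was the most abundant at 91.1 CPM per kilobase averaged over libraries, followed by its relative Cks2 at 66.8. Cyclin B2 (Ccnb2, 46.2), the DNA topoisomerase that untangles sister chromosomes (Top2a, 45.5) and the anaphase activator Cdc20 (43.1) came next. Cks1b led in each of the 6 libraries, while the order after it differed: in transgenic library 2 Top2a (71.6) and Ccnb2 (70.6) were above Cks2 (63.4), and in progesterone library 1 Cdc20 (51.4) was above Ccnb2 (36.7). Within the other roles the leading genes were Incenp at 30.5, Tpx2 at 23.0, Anln at 22.3, Bub1b at 21.6, Plk1 at 21.4 and Cenpa at 13.7 CPM per kilobase. At the low end were Cdc25c at 3.58, Kif11 at 0.581 and Nek2 at 0.202 CPM per kilobase. Nek2, a centrosome kinase, rested on 13 to 46 counts per library, and Kif11, the motor that pushes spindle poles apart, on 36 to 207 counts. Why Kif11 had so few counts for its length was not tested.

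The first comparison asked how tumours of ovariectomized, vehicle-treated hosts differed from those of transgenic hosts with no surgery named. Of the 44 genes, 43 were lower in the vehicle group and 42 had both vehicle libraries below both transgenic libraries. The median log2 fold change was -0.82, a 1.76-fold lower level, with quartiles of -0.89 and -0.71 and a range from -1.30 to 0.13. The median of all genes tested was -0.01. By edgeR's quasi-likelihood test with Benjamini-Hochberg adjustment over all genes, 0 of the 44 were called at an adjusted p under 0.05 (0% of all genes were called). The smallest adjusted p was 0.810 among the 44 and 0.587 among all genes. At an unadjusted p under 0.05, 38 of the 44 were lower, where 2.89% of all genes were. The 42 genes without overlap stand beside 17.7% of all genes with vehicle libraries below both transgenic ones. DESeq2 called 4 of the 44 as lower (Ccna2, Ccnb1, Cks1b and Birc5), where it called 0.238% of all genes with an adjusted p as lower, and limma-voom called 0. Of the T and NK cell markers past the filter, 8 of 9 were also lower in the vehicle group (median -2.09), at the low levels given above. So were 8 of 9 endothelial markers (median -0.25) and 10 of 13 macrophage markers (median -0.25). Mast cell markers (6 of 7, median 0.46) and neutrophil markers (5 of 7, median 0.24) were mostly higher. For endothelial, macrophage, mast cell and neutrophil markers, however, both summed vehicle values lay between the 2 transgenic ones. Neutrophil markers, for example, summed to 237 and 51.8 CPM for transgenic tumours and 174 and 176 CPM for vehicle. Of the macrophage, mast cell and neutrophil markers, 0 had an unadjusted p under 0.05. Fibroblast markers were split, with 5 lower and 5 higher (median 0.39).

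Among the genes that start mitosis, all 9 were lower in the vehicle group. Ccna2, the A-type cyclin of S phase and G2, was at 154 and 167 CPM for transgenic tumours, 71.0 and 91.2 for vehicle and 104 and 134 for progesterone. The groups did not overlap, and the log2 fold change from transgenic to vehicle was -0.99 ± 0.19 (SE; n = 2 per group; edgeR adjusted p = 0.810, DESeq2 adjusted p = 0.00634). Ccnb1, the main mitotic cyclin, was at 98.1 and 98.5 CPM for transgenic tumours, 55.9 and 59.2 for vehicle and 79.0 and 96.3 for progesterone. Its vehicle level was 1.71-fold lower than in the transgenic group (log2 -0.77 ± 0.16 SE), and its 2 transgenic libraries were close to equal. Cks1b was at 131 and 122 CPM for transgenic tumours, 76.8 and 79.4 for vehicle and 104 and 102 for progesterone. Each pair was tight, and the vehicle pair lay lowest (log2 -0.70 ± 0.14 SE, DESeq2 adjusted p = 0.00634). Cdk1 itself differed least of those with an unadjusted p under 0.05 here, from 111 and 109 CPM to 75.7 and 84.3 (log2 -0.46 ± 0.15 SE). The phosphatase Cdc25c had the most negative log2 fold change of all 44 (-1.30 ± 0.47 SE), resting on a transgenic pair of 13.6 and 40.0 CPM. Cks2 had a log2 difference of -0.37 and was the 1 gene of this role with an unadjusted p above 0.05. Ccnf, Foxm1 and Ccnb2 had log2 differences of -0.79, -0.82 and -0.72.

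Of the mitotic kinases, Plk1, the Polo kinase that acts from entry to cytokinesis, was at 49.1 and 61.3 CPM for transgenic tumours, 30.6 and 36.4 for vehicle and 50.9 and 54.0 for progesterone. Vehicle values were below the other 4 (log2 -0.72 ± 0.19 SE). Aurka, the centrosome Aurora kinase, had a log2 difference of -0.89, and Nek2 one of -1.06 ± 0.77 SE with overlapping libraries. All 4 checkpoint genes were lower at an unadjusted p under 0.05, with log2 differences from -0.97 to -0.74. Mad2l1, which forms the inhibitor of Cdc20, was at 81.5 and 105 CPM for transgenic tumours, 54.6 and 57.6 for vehicle and 69.2 and 77.3 for progesterone. For Mad2l1 the 3 groups did not overlap at all. Bub1b, a checkpoint pseudokinase, was at 78.6 and 151 CPM for transgenic tumours and 60.0 and 69.5 for vehicle, and 93.7 and 102 in the progesterone ones. Here the progesterone pair lay inside the wide transgenic range.

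The 4 genes of the chromosomal passenger complex, which corrects wrong kinetochore attachments, were each lower in the vehicle group with no overlap. Birc5, its survivin subunit, was at 77.2 and 89.0 CPM for transgenic tumours, 40.6 and 49.5 for vehicle and 62.0 and 63.6 for progesterone. The 3 pairs were separate, and Birc5 had the smallest unadjusted p of the 44 (0.00127; log2 -0.88 ± 0.17 SE; edgeR adjusted p = 0.810; DESeq2 adjusted p = 0.00634). Aurkb, its kinase, was at 73.2 and 96.2, 48.3 and 52.0, and 65.6 and 60.0 CPM in transgenic, vehicle and progesterone libraries (log2 -0.76 ± 0.18 SE). Incenp, the scaffold, was at 132 and 158, 96.3 and 105, and 134 and 168 CPM in the same order. Its progesterone pair was at the transgenic level, unlike that of Birc5 and Aurkb.

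At the centromere and kinetochore, all 6 genes were lower at an unadjusted p under 0.05, with log2 differences from -0.98 (Ndc80, the microtubule-binding subunit) to -0.60 (Cenpf). Cenpa, the centromeric histone H3 variant, was at 80.6 and 113 CPM for transgenic tumours, 51.3 and 59.2 for vehicle and 80.5 and 96.0 for progesterone (log2 -0.81 ± 0.21 SE from transgenic to vehicle). Vehicle values stood alone at the bottom. Among spindle motors and microtubule binders, 6 of 7 were lower and Kif11 was the exception, with 5.22 and 3.03 CPM for transgenic tumours, 7.10 and 1.91 for vehicle and 4.56 and 4.18 for progesterone. The 2 vehicle libraries of Kif11 were its highest and its lowest, so its log2 difference of 0.13 ± 0.63 SE carries no direction. Tpx2, which targets Aurka to the spindle, was at 103 and 168, 72.1 and 82.4, and 107 and 112 CPM in transgenic, vehicle and progesterone libraries.

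In the midzone and cytokinesis group, all 7 genes were lower in the vehicle group. Racgap1, a subunit of centralspindlin, was at 163 and 196 CPM for transgenic tumours, 120 and 108 for vehicle and 147 and 164 for progesterone (log2 -0.65 ± 0.16 SE). Ect2, the exchange factor that starts furrowing, was at 67.8 and 91.6, 40.9 and 46.4, and 57.5 and 77.7 CPM in the same order (log2 -0.87 ± 0.22 SE). Both showed the vehicle pair below all others. Anln, an actin-binding scaffold of the furrow, was at 221 and 281 CPM for transgenic tumours and 177 and 166 for vehicle, and its progesterone libraries were at 143 and 224. The progesterone pair of Anln spanned the vehicle pair. For anaphase proteolysis, Cdc20 was at 83.4 and 108, 47.9 and 62.9, and 96.0 and 84.3 CPM in transgenic, vehicle and progesterone libraries. Ube2c, the ubiquitin-conjugating enzyme of the same step, was at 73.9 and 90.9, 41.7 and 51.5, and 70.9 and 59.9 CPM. Their log2 differences from transgenic to vehicle were -0.79 and -0.82. Top2a was at 412 and 646 CPM for transgenic tumours, 265 and 325 for vehicle and 349 and 465 for progesterone, and Mki67, the chromosome-coating proliferation marker, had a log2 difference of -0.93.

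**Figure D2:**
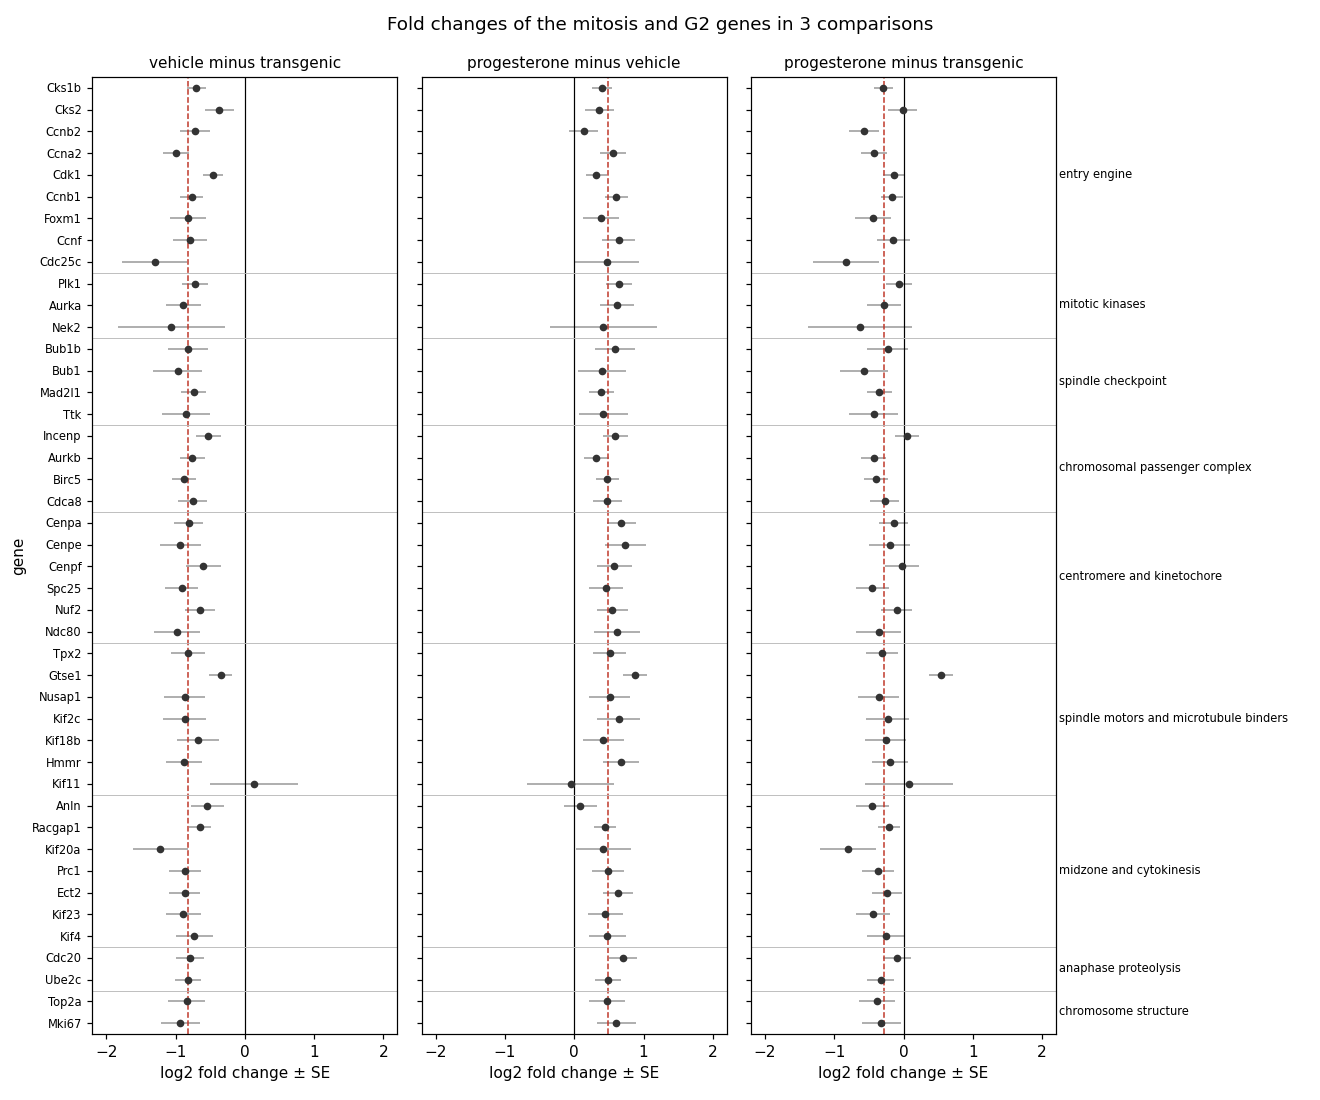
Log2 fold change ± SE (edgeR, 2 libraries per group) of each gene in 3 comparisons, in the order of the plot of levels; dashed lines mark the medians of -0.82, 0.49 and -0.28. In the left panel 43 of 44 points are below 0, in the middle panel 43 are above 0, and Gtse1 stands to the right of the rest in the middle and right panels.

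The second comparison asked how tumours differed between progesterone-treated and vehicle-treated ovariectomized hosts. Of the 44 genes, 43 were higher in the progesterone than in the vehicle group, and 38 had both progesterone libraries above both vehicle libraries. The median log2 fold change was 0.49, a 1.40-fold higher level, with a range from -0.05 to 0.88, against a median of 0.01 for all genes tested. edgeR called 0 of the 44 (0% of all genes; smallest adjusted p 0.826 among the 44 and 0.668 among all). At an unadjusted p under 0.05, 17 were higher, where 2.77% of all genes were, and the 38 without overlap stand beside 18.5% of all genes. DESeq2 called 1 of the 44, Gtse1, where it called 0.256% of all genes with an adjusted p as higher, and limma-voom called 0. This comparison shares the vehicle libraries with the first, so low vehicle values enter both with opposite sign. In the same comparison 9 of 9 T and NK cell markers past the filter were higher (median log2 difference 1.57), as were 12 of 13 macrophage markers (median 0.61) and 6 of 7 mast cell markers (median 3.40). All 6 red blood cell precursor markers (median -3.48) and 7 of 9 endothelial markers (median -0.35) were lower, and the part of these cells in the result was not tested. The red blood cell precursor markers summed to 2490 and 299 CPM for vehicle and 86.0 and 167 CPM for progesterone. The size of that difference therefore rested mainly on vehicle library 1, and 0 of the 6 had an unadjusted p under 0.05. Summed mast cell markers were 82.1 and 186 CPM for progesterone and 16.7 to 31.3 CPM in the other 4 libraries. Summed endothelial markers were 265 and 262 CPM for vehicle and 116 and 269 CPM for progesterone, lower only in progesterone library 1. Of these 9 markers, 2 had an unadjusted p under 0.05.

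Gtse1, a microtubule-tip protein expressed in G2 that also binds p53, had the largest difference. It was at 43.5 and 37.2 CPM for transgenic tumours, 32.4 and 31.1 for vehicle and 58.5 and 58.5 for progesterone. The progesterone pair was the highest of the 3 groups and nearly equal, 1.84-fold above vehicle (log2 0.88 ± 0.17 SE, edgeR adjusted p = 0.826, DESeq2 adjusted p = 0.00226). Its level was also above that of the transgenic libraries (log2 0.54 ± 0.17 SE, unadjusted p = 0.0163, edgeR adjusted p = 0.914). No other gene of the 44 had both progesterone libraries above both transgenic ones.

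Next by unadjusted p were Ccnb1 (log2 0.61 ± 0.16 SE), Cdc20 (0.70 ± 0.20), Plk1 (0.65 ± 0.19), Incenp (0.59 ± 0.18) and Cenpa (0.68 ± 0.21). For each of these 5, the progesterone libraries given above were both higher than the vehicle libraries, and edgeR's adjusted p was 0.932. Cks1b, Ccna2, Ect2, Birc5 and Racgap1 followed, with log2 differences of 0.40, 0.56, 0.63, 0.48 and 0.45. Ccnf, an F-box cyclin that forms a ubiquitin ligase, was at 43.5 and 49.7 CPM for vehicle and 76.1 and 69.5 for progesterone, with 61.3 and 100 CPM for transgenic tumours (log2 0.64 ± 0.24 SE). Its pairs were apart between vehicle and progesterone.

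By role, the median log2 difference between progesterone and vehicle ran from 0.40 for the entry genes and 0.41 for the checkpoint to 0.60 for the centromere and kinetochore, 0.60 for anaphase proteolysis and 0.62 for the mitotic kinases. Of the checkpoint genes, 0 of 4 had an unadjusted p under 0.05, and of the kinetochore genes 3 of 6 did. Cenpe, a kinetochore motor, had a log2 difference of 0.74. The smallest were those of Ccnb2 (0.14), Anln (0.09) and Kif11 (-0.05), each with overlapping libraries.

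The third comparison set progesterone-treated ovariectomized hosts against transgenic hosts with no surgery named. Here 41 of the 44 genes were lower in the progesterone group, by a median log2 fold change of -0.28 (range -0.83 to 0.54, all genes 0.01). edgeR called 0 of them (0% of all genes, smallest adjusted p 0.914 among the 44), and DESeq2 and limma-voom called 0. At an unadjusted p under 0.05, Ccnb2, Aurkb and Birc5 were lower, a count of 3 where 2.54% of all genes were. Both progesterone libraries lay below both transgenic libraries for 11 genes, beside 14.5% of all genes. Ccnb2 was at 77.9 and 108 CPM for transgenic tumours, 53.0 and 60.2 for vehicle and 56.2 and 68.9 for progesterone (log2 -0.57 ± 0.21 SE). For Ccnb2 the progesterone pair overlapped the vehicle pair and not the transgenic one. Aurkb and Birc5 had log2 differences of -0.43 and -0.40, and Ccna2 and Cks1b of -0.43 and -0.29, each without overlap. Incenp (0.05), Kif11 (0.08) and Gtse1 (0.54) were the 3 above 0. In this comparison 8 of 9 endothelial markers (median -0.51), 6 of 9 T and NK cell markers (median -0.41) and 6 of 6 red blood cell precursor markers (median -3.46) were lower. Summed endothelial markers overlapped, at 257 and 313 CPM for transgenic tumours and 116 and 269 CPM for progesterone. Summed T and NK cell markers overlapped as well. The red blood cell precursor difference rested on transgenic library 1, with a sum of 2819 CPM. Transgenic library 2, at 62.9 CPM, was below both progesterone libraries (86.0 and 167 CPM), and 0 of these markers had an unadjusted p under 0.05. Macrophage markers (11 of 13, median 0.36), mast cell markers (6 of 7, median 3.69) and fibroblast markers (8 of 10, median 0.73) were mostly higher, and their part in the result was not tested. Summed fibroblast markers overlapped, at 7645 and 2068 CPM for transgenic tumours and 4987 and 10626 CPM for progesterone, and 0 of these markers had an unadjusted p under 0.05. Summed macrophage markers overlapped too, at 1310 and 2752 CPM against 2959 and 2552 CPM.

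The direction of this last comparison rested on transgenic library 2. Without it the median of the 44 was 0.02, with 21 genes lower and 23 higher, and without transgenic library 1 it was -0.54. In the first comparison, leaving out transgenic library 2 gave a median of -0.49, with all 44 lower and 19 at an unadjusted p under 0.05, beside 512 of all genes in either direction. Leaving out vehicle library 1 gave a median of -0.70 with 11 genes at an unadjusted p under 0.05, beside 285 of all genes. It left 1 such gene of the 44 in the second comparison, beside 271 of all genes, which is a share near the background, and the median was then 0.39. Leaving out progesterone library 2 left 6 there, beside 643 of all genes. Without transgenic library 1 or 2 it was 28 in each case, beside 1087 and 1068 of all genes, where the fit on all libraries gave 17 beside 721. In the last comparison the count without overlap was 39 without transgenic library 1, beside 33.1% of all genes, and 24 without progesterone library 2, beside 32.3%. With 1 library against 2, genes separate more easily.

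The transgenic pair was the widest of the 3. In library 2, 38 of the 44 genes were higher than in library 1, by a median log2 ratio of 0.48, where all genes tested had a median of 0.02. The vehicle and progesterone pairs differed by medians of 0.23 and 0.19, also with library 2 above library 1. In the transgenic pair the entry genes had the smallest median (0.11) but a wide range, from -0.36 (Cks2) to 1.55 (Cdc25c). Foxm1 (0.82) and Ccnf (0.71) were also higher in library 2, while other entry genes were equal or lower. Ccnb1 was close to equal, Cdk1 was at 111 and 109 CPM, and Cks1b and Cks2 (56.4 and 43.9 CPM) were lower. The checkpoint genes (median 0.66), the kinases (0.69) and the spindle group (0.70) had larger medians. Bub1, the kinetochore checkpoint kinase, was at 66.7 and 137 CPM, and Mki67 at 303 and 515 CPM. Against the S phase list described below, the mean log2 level of the 44 was -0.05 and 0.21 in transgenic libraries 1 and 2, -0.12 and -0.06 for vehicle and -0.01 and 0.10 for progesterone.

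**Figure D3:**
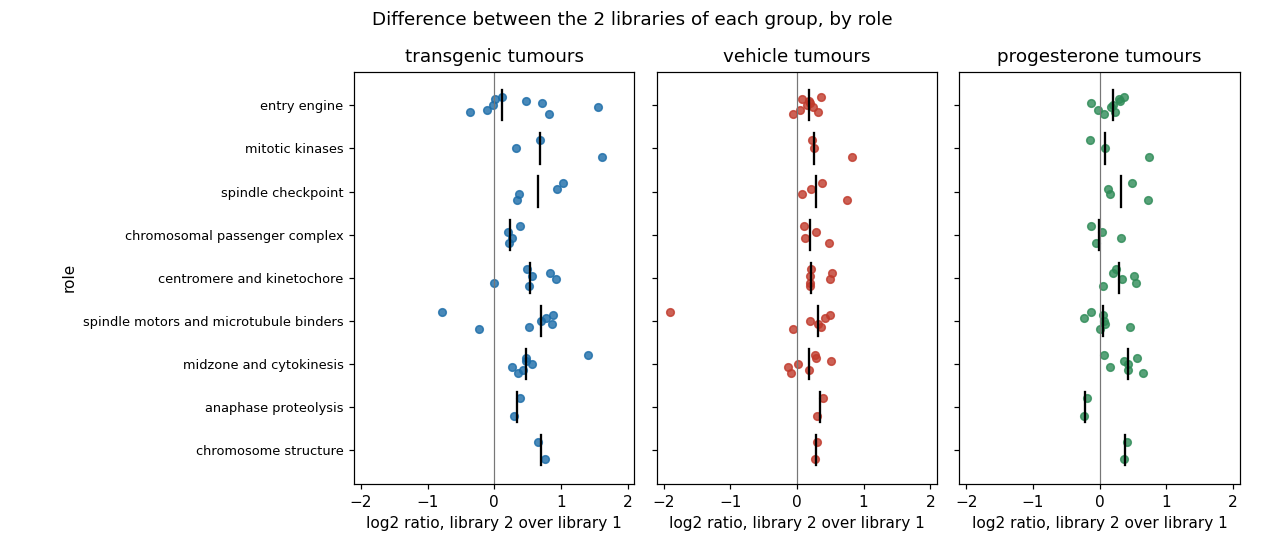
Log2 ratio of library 2 to library 1 within each group, per gene (points) and role (black bar, median). In the transgenic panel the medians run from 0.11 for the entry genes to 0.71 for the chromosome-structure genes, and the Kif11 point at -1.90 stands alone in the vehicle panel.

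Cdc25c and Kif20a, a midzone kinesin needed for cytokinesis, had the largest transgenic ratios after Nek2. Kif20a was at 71.9 and 190 CPM in transgenic libraries 1 and 2, 51.2 and 61.6 for vehicle and 73.8 and 76.8 for progesterone. Without transgenic library 2, then, the values of Kif20a in the transgenic and progesterone groups were close. These are the 2 members on chromosome 18, with 99.7 kb between them. On that chromosome the 333 genes tested had a median log2 ratio of 0.75 between transgenic library 2 and library 1, the highest of 20 chromosomes, and -0.01 and 0.03 in the vehicle and progesterone pairs. Relative to each gene's mean over the 6 libraries, the chromosome 18 median was 0.59 in transgenic library 2 and between -0.23 and -0.02 in the other 5. Chromosome 13, which holds Ccnb1 and Cks2, had the lowest transgenic median, -0.42. With the median of its own chromosome subtracted, Kif20a was still 0.65 and Cdc25c 0.80 higher in library 2 on the log2 scale, Ccnb1 0.43 and Cks2 0.06. After the same subtraction 42 of the 44 genes were above 0, with a median of 0.50, and their SD went from 0.46 to 0.36. These chromosomes were chosen after the values were seen, and their part in the comparisons between groups was not tested.

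Kif20a also shares 29.3% of its exon bases with the oppositely oriented Cdc23, a subunit of the anaphase-promoting complex, and whether counting used the strand is not given in the sources used here. Cdc23 was at 61.7 and 116 CPM in the transgenic libraries and between 60.1 and 62.2 in the other 4. Reads of Kif20a and Cdc23 may therefore be mixed, as may those of Ube2c (22.8% of exon bases, with Tnnc2), Kif4 (15.1%), Cdc25c (12.7%), Ccna2 (12.5%, with Exosc9) and Prc1 (11.1%). Ccnb1, Ccnb2, Kif4 and Cks1b have annotated pseudogenes or related copies that could take or give reads.

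Other cell-cycle genes were counted from lists chosen by function. Of 83 further mitosis and G2 genes, 81 were lower for vehicle than transgenic tumours and 54 had an unadjusted p under 0.05, with a median log2 difference of -0.68. Cdca5, the cohesin protector sororin, was at 39.2 and 51.9 CPM for transgenic tumours, 21.3 and 24.9 for vehicle and 31.8 and 31.8 for progesterone. Haspin, the histone H3 kinase that recruits the passenger complex, had log2 differences of -1.18 from transgenic to vehicle and -0.79 from transgenic to progesterone. Between progesterone and vehicle the median of the 83 was 0.45, with 11 higher at an unadjusted p under 0.05, including the centriole kinase Plk4 (1.74 ± 0.56 SE). edgeR called 0 genes in any of these other lists. DESeq2 called 5 of the 83 between vehicle and transgenic, beside 63 of 12183 genes with an adjusted p in either direction.

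The S phase list lay on the same side as the mitotic genes, with a smaller median in the first 2 comparisons. All 39 replication genes were lower for vehicle than transgenic tumours (median -0.58, 28 at an unadjusted p under 0.05) and all 39 were higher in progesterone than in vehicle (median 0.36, 11). DESeq2 called 4 of the 39 in the first of these comparisons, beside 63 of 12183 genes in either direction. Between progesterone and transgenic it called 1 of the 39, beside 47 of 16670 genes. Rrm2, the small subunit of ribonucleotide reductase, was at 157 and 163 CPM for transgenic tumours, 77.7 and 76.5 for vehicle and 90.6 and 83.3 for progesterone. Its progesterone level was near that of vehicle, and its log2 differences from the transgenic group were -1.06 for vehicle and -0.88 for progesterone. Tk1, the thymidine kinase, was at 95.3 and 103, 65.7 and 69.3, and 92.4 and 98.4 CPM in transgenic, vehicle and progesterone libraries, close to the transgenic level under progesterone. Of 10 G1 genes 9 were lower for vehicle than transgenic tumours (median -0.24), led by the E cyclins Ccne2 (-0.87) and Ccne1 (-0.89), and DESeq2 called 1 of the 10.

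Regulators and brakes showed smaller or mixed differences. Of 20 MuvB, E2F and B-Myb genes 18 were lower for vehicle than transgenic tumours, with a median of -0.34. Mybl2, the B-Myb gene, was at 69.9 and 97.5 CPM for transgenic tumours, 45.5 and 47.0 for vehicle and 59.8 and 52.9 for progesterone. The 15 genes listed for the anaphase-promoting complex, its subunits and the activator Fzr1, had medians of -0.09, 0.07 and 0.08 in the 3 comparisons. Of these, 0 had an unadjusted p under 0.05 in any comparison, whereas Cdc20 and Ube2c did in the first 2. Of 20 listed brakes, 19 passed the filter, with a median of 0.14 from transgenic to vehicle, 8 lower and 11 higher. By unadjusted p, Rbl1, the p107 pocket protein, came first among them between vehicle and transgenic and lay on the side of the mitotic genes, at 56.0 and 62.8 CPM for transgenic tumours, 41.4 and 36.6 for vehicle and 41.4 and 54.9 for progesterone (log2 -0.61 ± 0.20 SE). Cdkn2c, the p18 inhibitor of Cdk4 and Cdk6, was also on their side between progesterone and vehicle (log2 0.61 ± 0.26 SE). Gadd45a, a stress-induced inhibitor of the Cdk1-cyclin B kinase, ran opposite to the mitotic genes, at 77.9 and 40.5 CPM for transgenic tumours, 141 and 102 for vehicle and 71.4 and 45.5 for progesterone. Its log2 differences were 1.04 ± 0.36 SE for vehicle against transgenic and -1.06 ± 0.36 SE for progesterone against vehicle (edgeR adjusted p = 0.827 and 0.935). Wee1, the kinase that holds Cdk1 inactive, had a log2 difference of -0.38 between progesterone and vehicle.

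**Figure D4:**
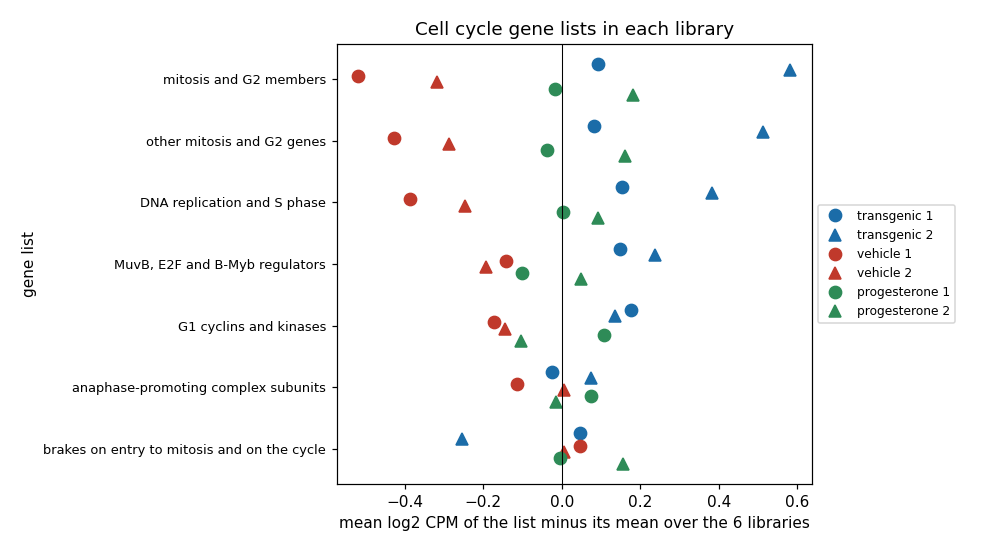
Mean log2 CPM of 7 cell-cycle lists in each library, minus the list's own mean over the 6 libraries (circles library 1, triangles library 2). The 44 members spread furthest, with vehicle libraries at the left and transgenic library 2 at the right. The list of anaphase-promoting complex subunits, which also holds the activator Fzr1, spread least.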

How the data were processed

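RNA of LLC1 tumours was sequenced as 6 directional mRNA libraries (500 ng of total RNA, per the labels' protocols). The authors deposited raw read counts per gene for the 6 libraries. Per the submitters' processing notes, HISAT2, HTSeq and DESeq were used with GRCm38.p6; no source used here gives versions, settings or strand use. Symbols came from the table, coordinates (1-based) and exon lengths from GENCODE M21 (19284 of 19288 gene IDs found), and promoters from RefSeq.

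Counts were filtered with filterByExpr, scaled by TMM and tested with edgeR 4.0.16 (quasi-likelihood, 1 mean per group over all 6 libraries, 3 residual degrees of freedom, Benjamini-Hochberg over 13632 genes). The common biological coefficient of variation was 0.295. Log2 CPM used a prior count of 2. DESeq2 1.42.0, limma-voom (limma 3.58.1), other scalings, no filter, a replicate block, fits on 4 libraries and each library left out were alternatives. Values per library are given for the 12, 12 and 6 genes with the smallest unadjusted p without overlap in the 3 comparisons, the most abundant gene of each role, and genes against the majority; from other lists, up to 3 genes by smallest p. Chromosome medians, and values of other genes named, were added after the values were seen. The members and lists were chosen with earlier results of these data known.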

Additional observations from a re-analysis of the deposited data

How the results depend on the processing

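With 2 libraries per group and 3 residual degrees of freedom, edgeR called 0 of the 44 genes in each comparison under RLE scaling, total counts, no filter, 4-library fits and every left-out library. Without the filter it called 12, 92 and 28 genes in all in the 3 comparisons, 0 of them members. The smallest edgeR adjusted p of the 44 was then 0.0849, 0.103 and 0.438, against 0.810, 0.826 and 0.914 with the filter, so these values depend on the filter. DESeq2 called 4 members (vehicle against transgenic) and 1 (progesterone against vehicle). With a replicate block the medians were -0.79, 0.50 and -0.27 and 0 members were called; same-numbered libraries share only a number (correlations of their deviations 0.08, -0.13 and -0.17). Leaving out 1 library at a time moved the median from -1.02 to -0.49 (vehicle against transgenic), 0.39 to 0.65 (progesterone against vehicle) and -0.54 to 0.02 (progesterone against transgenic), and the last comparison's count without overlap from 11 to 39. A group reduced to 1 library is assumed to vary like the others. Kif11 changed sign: in vehicle against transgenic to -0.02 with the block and from -1.11 to 0.78 over left-out libraries; in progesterone against vehicle to 0.03 with total counts, 0.11 with limma-voom, 0.20 with the block, and from -0.70 to 1.19; in progesterone against transgenic from -0.26 to 0.52. In progesterone against vehicle Ccnb2 ran from -0.01 to 0.28 and Anln from -0.26 to 0.38, and in progesterone against transgenic Incenp from -0.12 to 0.20. Total counts moved the median of all genes to 0.09 in progesterone against vehicle and put Cks2 and Cenpf above 0 against transgenic. Where a left-out library changed a value, the cause was not tested.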
